A study of Mus musculus with 40 samples.

Results

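Collagen genes are described here across cultured melanoma cells and tumours. They are all genes with a symbol made of Col, a number, the letter a and a number that have a probe set naming that gene alone, and the brightest such probe set over the 40 arrays stands for the gene. There were 42 of them (68 probe sets) among 17097 genes. Of the 42, 21 lay above background in at least 1 of the 6 sample groups and 21 in none. A log2 value of 4.48 served as background, below which 95% of 79 probe sets for olfactory and vomeronasal receptors had their means; most tissues do not express these receptors.

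Collagens are the main structural proteins of the extracellular matrix, built of chains wound into a triple helix. Fibrillar collagens form fibrils, fibril-associated collagens bind their surface, type IV collagens form the network of basement membranes and type VI collagens form beaded filaments. In skin, fibrillar collagen is known as a product of fibroblasts, while type IV chains are made by many cell types.

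The arrays measured RNA of B16F10, an established mouse cutaneous melanoma line, grown as cultures or as tumours after injection under the skin of C57black6J mice aged 8 weeks. The groups were 4 control cultures, 4 cultures treated with OTX015 (an inhibitor of BET bromodomain proteins), 11 control tumours and 10 tumours of mice given OTX015 by mouth, and 5 control tumours and 6 tumours of mice given guadecitabine (an inhibitor of DNA methylation) intraperitoneally. All groups share the same line, and the labels name no transgene, dose, length of treatment or sex. They do not say that replicates come from separate cultures or animals, so p-values measure only the spread between these samples. The series asks how such drugs reshape the surroundings of melanoma cells.

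Melanocyte markers lay above background in every group (10 of 10). Of 10 macrophage markers, 1 lay above it in each culture group and 9 in each tumour group. The titles name the tumour samples as mouse melanocyte cells, and the labels mention no sorting of tumour cells. Of 13 fibroblast markers other than collagens, 2 to 4 were above background per group. Array means in the deposited table were 4.35 to 4.39 for the 10 tumours given OTX015 and 4.55 to 4.64 for the other 30 samples, so values are given after quantile normalization over the 40 arrays, unless the deposited values are named.

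The sequences upstream of the RefSeq start (GRCm38.p6, plus strand) are shown for the 4 collagen genes that the comparisons turn on: Col9a1 and Col4a5, which fell in treated cultures, Col15a1, which rose in treated tumours, and Col16a1, which differed between culture and tumour and between the 2 sets of control tumours. Each run covers 250 bases and ends just before the start. Capitals mark matches to CCAAT or GGGCGG on the printed strand. RefSeq gives Col9a1 a pair of starts, here called upstream and downstream, with their regions at chr1:24177360-24177609 and chr1:24194953-24195202. The regions of Col15a1, Col4a5 and Col16a1 are chr4:47207762-47208011, chrX:141475169-141475418 and chr4:130047590-130047839.
Col9a1, upstream start: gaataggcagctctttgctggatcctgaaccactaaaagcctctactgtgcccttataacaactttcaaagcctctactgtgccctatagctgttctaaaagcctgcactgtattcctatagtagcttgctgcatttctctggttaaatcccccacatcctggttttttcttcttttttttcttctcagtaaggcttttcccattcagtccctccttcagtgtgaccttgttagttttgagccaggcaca
Col9a1, downstream start: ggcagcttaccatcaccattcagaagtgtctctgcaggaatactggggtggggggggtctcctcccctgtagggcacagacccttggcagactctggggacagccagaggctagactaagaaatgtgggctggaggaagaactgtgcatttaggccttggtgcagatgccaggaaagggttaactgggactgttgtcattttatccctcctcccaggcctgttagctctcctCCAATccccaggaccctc
Col15a1: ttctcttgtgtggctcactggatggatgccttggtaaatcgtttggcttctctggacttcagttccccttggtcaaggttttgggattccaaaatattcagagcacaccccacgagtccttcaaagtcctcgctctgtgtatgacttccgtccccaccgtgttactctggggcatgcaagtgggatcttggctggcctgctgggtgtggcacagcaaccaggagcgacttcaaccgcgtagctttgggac
Col4a5: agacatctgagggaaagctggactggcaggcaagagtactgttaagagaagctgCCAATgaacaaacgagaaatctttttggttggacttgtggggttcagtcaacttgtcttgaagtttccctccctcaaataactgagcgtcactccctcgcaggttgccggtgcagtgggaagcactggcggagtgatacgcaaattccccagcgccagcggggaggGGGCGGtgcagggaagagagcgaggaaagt
Col16a1: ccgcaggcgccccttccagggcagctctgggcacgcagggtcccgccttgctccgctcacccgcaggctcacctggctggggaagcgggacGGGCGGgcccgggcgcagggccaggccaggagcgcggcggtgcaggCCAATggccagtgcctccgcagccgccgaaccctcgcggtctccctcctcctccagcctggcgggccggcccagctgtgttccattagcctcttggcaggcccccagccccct
Exact letters were searched on both strands. The TATA box was read as TATAAA and the CCAAT box by its name. The motif known as the GC box was read as GGGCGG. For the E-box the letters were CACGTG, and for the AP-1 motif TGACTCA. No match overlaps another in the printed runs. The upstream Col9a1 region and the Col15a1 region hold no match. The downstream Col9a1 region holds CCAAT with its first base at -18, counted back from the start. Col4a5 holds CCAAT at -196 and GGGCGG at -30, and Col16a1 holds GGGCGG at -159 and CCAAT at -113. Over 36 starts of 33 collagen genes with an entry, GGGCGG was found at 21, CCAAT at 13, TATAAA at 5, TGACTCA at 1 and CACGTG at 0. Among 32851 regions of the same length in the whole table, the shares with a match were 32.7%, 33.8%, 12.4%, 4.46% and 6.02% in that order. Col4a1 and Col4a2 lie head to head on chromosome 8 with starts 21 bases apart, placed so that their first bases overlap. Col4a6 and Col4a5 lie head to head on chromosome X with starts 1343 bases apart and no overlap.

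**Figure D1:**
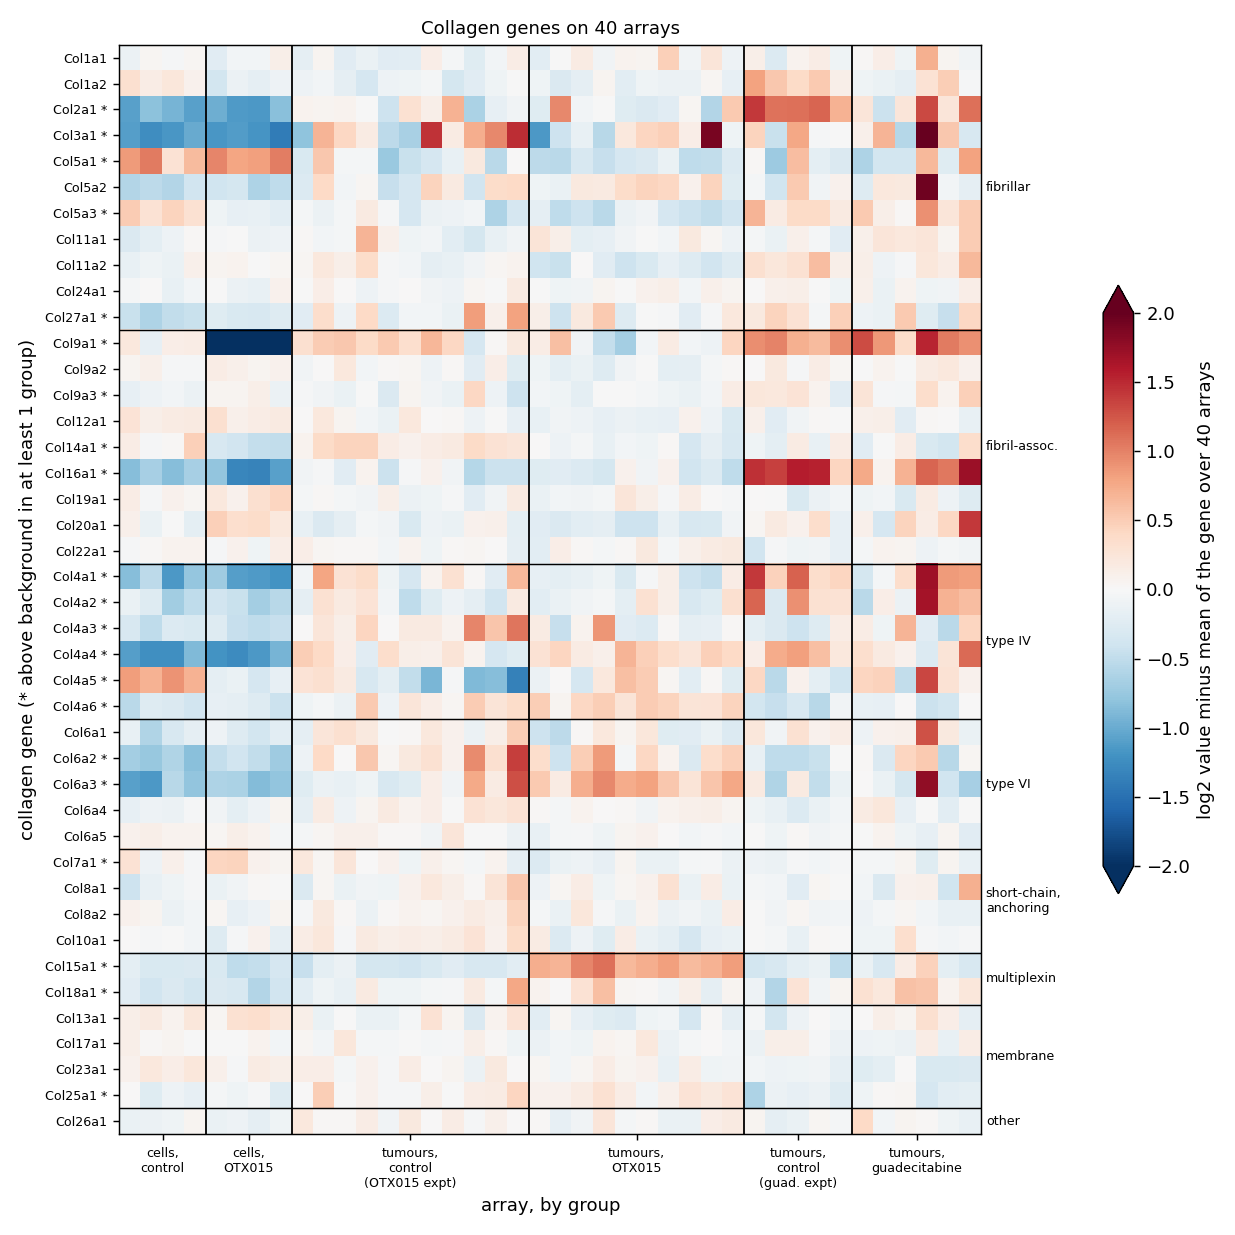
Each row is 1 of 42 collagen genes in its structural class and each column 1 of 40 arrays; the colour is the log2 value minus the mean of that gene over all arrays, limited at -2 and 2, and a star marks the 21 genes above background in at least 1 group. Col9a1 is low in the 4 OTX015-treated cultures alone, Col15a1 is high in the 10 OTX015-treated tumours, and Col16a1 is high in tumours of the guadecitabine experiment.

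OTX015 in cultured cells lowered 6 collagen genes and raised 2, and 34 did not pass the test. The fibril-associated collagens had the most calls (3 lower and 1 higher of 9), with Col9a1, a chain of the cartilage collagen type IX, falling furthest. Fibrillar collagens had 2 lower and 1 higher of 11, type IV had 1 lower of 6, and none of the type VI (5 measured), short-chain and anchoring (4), multiplexin (2) or membrane-spanning (4) genes passed. The 8 called make up 19.0% of the collagen genes against 39.6% of all genes called in this comparison by limma at an adjusted p under 0.05. The median log2 difference was -0.02 over the collagen genes and 0.00 over all genes.

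In the 4 control cultures Col9a1 stood at 7.53, 7.16, 7.46 and 7.48 on the log2 scale, and in the 4 treated cultures at 3.28, 3.94, 3.88 and 4.18. Every treated value lies below background and far under every control. The log2 difference was -3.59 ± 0.16 (SE, limma adjusted p = 1.7e-09), and since the treated level is only bounded by background the fall is at least 7.62-fold. The other Col9a1 probe set fell by 1.09 (adjusted p = 1.56e-06 over all named probe sets), so both changed in the same direction but by different amounts. The remaining chains of type IX collagen, Col9a2 and Col9a3, were added after their values were seen; both lay near or below background, and they differed by 0.06 and 0.13 without passing (adjusted p = 0.509 and 0.182).

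Col4a5, a basement membrane chain, stood at 7.66, 7.52, 7.71 and 7.51 in control cultures and at 6.64, 6.69, 6.49 and 6.65 in treated ones. The groups do not overlap, and the fall was 1.98-fold (log2 -0.99 ± 0.08 SE, adjusted p = 2.64e-07). Its second probe set did not pass (-0.07, adjusted p = 0.56). Col4a6, whose start lies next to that of Col4a5, was likewise added and differed by 0.11 (adjusted p = 0.386). Col4a1 and Col4a2, which form the common type IV network, differed by -0.21 and -0.12 (adjusted p = 0.256 and 0.496), Col4a1 passing with array weights (-0.31, 0.0205) and without control replicate 3 (-0.32, 0.0450).

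Among fibrillar chains, Col5a3 stood at 5.39, 5.18, 5.34 and 5.20 in controls and at 4.80, 4.73, 4.75 and 4.68 with OTX015, again without overlap (-0.54 ± 0.07, adjusted p = 4.08e-05). Its dimmer probe set, below background, differed by -0.03. Col14a1, which binds fibril surfaces, stood at 4.48, 4.30, 4.36 and 4.80 in controls and at 4.00, 3.94, 3.84 and 3.83 with OTX015 (-0.58 ± 0.10, adjusted p = 0.000451). The groups do not overlap, but only 1 of the 8 cultures lay clearly above background. Col16a1, another fibril-associated collagen, fell by 0.37 (adjusted p = 0.0173) with overlapping groups, and it lost the call without control replicate 4 (adjusted p = 0.0538), without treated replicate 2 (0.0618) or 3 (0.0614), or with all 6 groups in 1 fit (0.252). Col1a2 (-0.38, adjusted p = 0.00181) and Col20a1 (0.41, adjusted p = 0.00158) changed below background in both groups, and Col20a1 lost its call with all 6 groups in 1 fit (0.0854).

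Col27a1, a fibrillar collagen of cartilage, stood at 5.65, 5.48, 5.60 and 5.66 in controls and 5.85, 5.79, 5.77 and 5.84 with OTX015. All treated values were higher, but the rise was small (0.21 ± 0.07, adjusted p = 0.022). It lost the call in the deposited table (0.18, adjusted p = 0.0514), when its probe sets were averaged (0.07, 0.464), with a variance trend (0.0526), with all 6 groups in 1 fit (0.552), and without control replicate 2 (0.0675) or treated replicate 4 (0.0569). Col1a1, Col3a1, Col15a1 and Col18a1 differed by -0.04, -0.09, -0.13 and -0.08, with adjusted p from 0.184 to 0.781.

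Genes that modify, process or bind collagen were read against the 39.6% of all genes called in treated cultures. Of 17 modifying and secretion genes, 7 rose and 5 fell: P4ha2, a prolyl hydroxylase subunit, fell by 1.71, Crtap, a cofactor of prolyl 3-hydroxylation, fell by 0.78 and the prolyl 3-hydroxylase P3h2 rose by 0.68. Of 11 genes that process and crosslink procollagen, 0 rose and 2 fell, namely Pcolce, the enhancer of the C-proteinase (-1.99), and the lysyl oxidase relative Loxl3 (-0.84). Of 9 collagen receptors only Ddr2, a receptor tyrosine kinase that binds fibrillar collagen, passed (-1.31). TGF-beta signalling, a known regulator of collagen genes, had 4 of 11 genes higher and 3 lower, with the latent TGF-beta binding protein Ltbp1 at 1.08 (2.82 in controls, below background) and the receptor genes Tgfbr2 at -1.36 and Tgfbr1 at 0.58. Of 10 cartilage matrix genes and SOX factors, 2 rose (Sox9 and Sox6 by 0.45 and 0.33) and 2 fell (Sox5 and Matn3 by 0.87 and 0.32), with Sox9 below background in controls (3.20). Of 13 fibroblast markers 0 rose and 3 fell, by 0.52 (Postn, below background), 0.74 (Fbln1) and 0.22 (Pdpn), in these cultures, which hold the cell line alone by their labels.

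**Figure D2:**
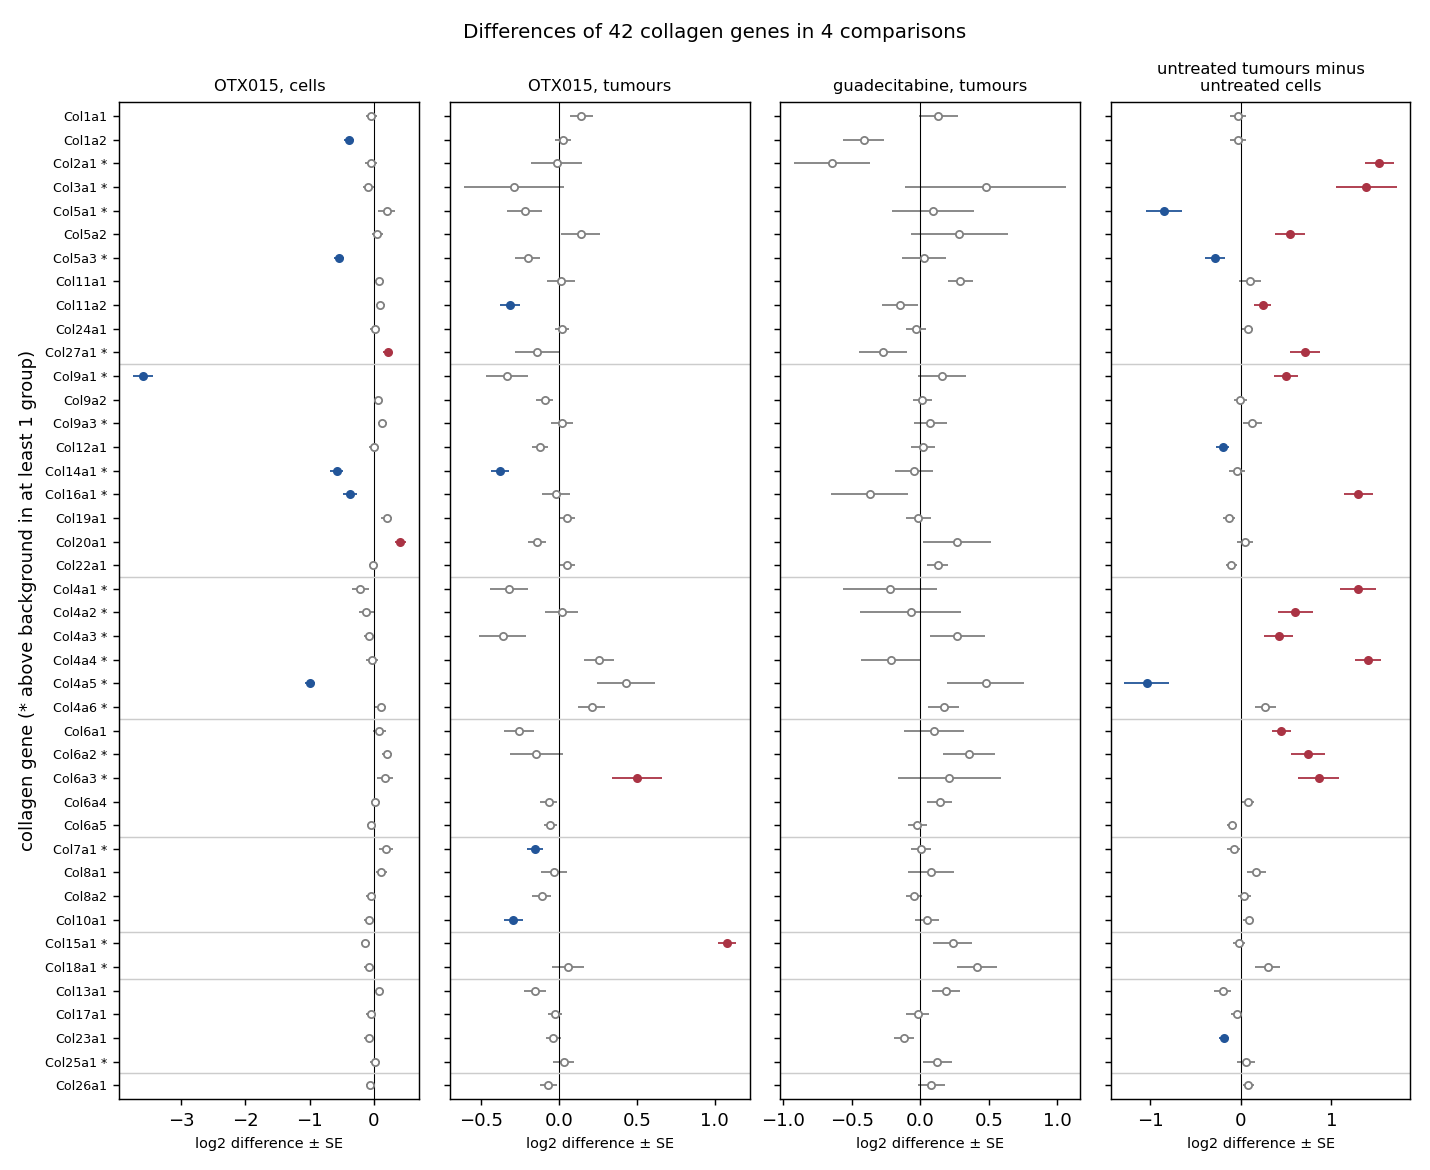
Log2 difference of each of 42 collagen genes with its standard error in 4 comparisons, 1 panel each with its own horizontal scale; filled points passed limma at an adjusted p under 0.05 (red higher, blue lower), open points did not, and a star marks genes above background in at least 1 group. In cells Col9a1 (-3.59) stands far to the left, in OTX015-treated tumours Col15a1 (1.08) to the right, guadecitabine has no filled point, and the comparison of tumours with cells has 14 filled points to the right and 5 to the left.

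In tumours, OTX015 was compared on another set of arrays. Against the 11 control tumours of its own experiment, 2 collagen genes were higher (8.68% of all genes were), 4 were lower (7.51%) and 36 did not pass. In the deposited table, where the means of the treated arrays are lower, 1 was higher and 30 were lower. Among genes with a mean over the 40 arrays above background 0 passed, but Col15a1 (mean 4.31) was not tested there. Col15a1, the core of a basement membrane proteoglycan, rose in all 10 treated tumours, and it was the only collagen gene changed at least 1.5-fold. The 6 called are 14.3% of the collagen genes, against 16.2% of all genes and 14.9% of the 74 background receptor genes (11 called). Of the other 5 calls, 3 lay below background in both groups. In these tumour samples fewer cells of a type and less RNA per cell cannot be told apart.

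Col15a1 ranged from 3.85 to 4.19 in the control tumours (median 3.99) and from 4.94 to 5.41 in the treated tumours (median 5.03). Every treated tumour lay above every control, and above background, which every control lay under. The log2 difference was 1.08 ± 0.06 (SE, n = 11 and 10, limma adjusted p = 5.72e-11), a rise of at least 1.53-fold since controls are only bounded by background. On the deposited values, where all genes had a median of -0.21, it was 0.74 (adjusted p = 4.78e-09). Over all alternatives that held the gene the difference stayed between 0.74 and 1.09, and it was 1.04 to 1.09 with any 1 tumour left out. Only 1 probe set measures this gene. In the 4 control and 4 treated cultures Col15a1 stood between 3.81 and 4.11, below background in all 8.

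Col18a1, the other collagen of the multiplexin class, is the source of endostatin. It ranged from 5.08 to 6.06 in controls (median 5.25) and from 5.10 to 5.89 in treated tumours (median 5.33), with wide overlap (0.06 ± 0.10, adjusted p = 0.774). In the deposited table it was lower with OTX015 (-0.19, adjusted p = 0.029). Col15a1 and Col18a1, close relatives in structure, were thus called differently, and the difference between their changes was not tested.

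Col6a3, a chain of the beaded filaments, ranged from 4.93 to 6.55 in controls (median 5.17) and from 5.42 to 6.21 in treated tumours (median 5.90). The ranges overlap, though all 10 treated tumours lay above the control mean (0.50 ± 0.16, adjusted p = 0.0365). The call was lost in the deposited table (0.26, adjusted p = 0.0717), among genes above background (0.0526) and with all 6 groups in 1 fit (0.0815). Leaving out a single control tumour (replicate 1, 2, 3, 4, 5, 6 or 8) or a single treated one (replicate 3, 4, 5, 6 or 10) also ended it, with adjusted p of at most 0.0621. The partner chains Col6a1 and Col6a2 had no call in this comparison.

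Of the genes called lower, Col14a1 ranged from 4.40 to 4.77 in controls and from 3.99 to 4.34 in treated tumours (-0.38 ± 0.06, adjusted p = 0.000111). Its groups do not overlap, but the treated level is below background, a second probe set, far below background, rose by 0.28 (adjusted p = 0.00144), and the mean of its 3 probe sets gave -0.05 (adjusted p = 0.467). Col11a2 (-0.32, adjusted p = 0.0018) and Col10a1 (-0.29, adjusted p = 0.00212), both known from cartilage, and Col7a1 of anchoring fibrils (-0.15, adjusted p = 0.0389) were below background in both groups. Col7a1 lost its call with a variance trend (adjusted p = 0.0704), with all 6 groups in 1 fit (0.0502) and with the replicate number as a block (0.0507). Leaving out a single control tumour (replicate 1, 3, 5, 7, 8 or 10) or treated one (replicate 1, 2, 3, 4, 6, 7 or 10) ended it too, with adjusted p of at most 0.0766.

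Col9a1, which fell so far in culture, ranged from 6.997 to 7.996 in control tumours (median 7.71) and from 6.65 to 7.93 in treated tumours (median 7.27). The groups overlap widely, all tumours lie well above background, and the difference did not pass (-0.33 ± 0.14, adjusted p = 0.0998). It passed in the deposited table (-0.57, adjusted p = 0.00997), with array weights (-0.37, 0.0252), without the 3 arrays of lowest spread (-0.37, 0.0464) and without control tumour 9 (0.0343) or treated tumour 2 (0.0379). Col4a1 differed by -0.32 ± 0.12 (adjusted p = 0.0744), and passed in the deposited table (-0.55, adjusted p = 0.000859) and without control tumour 6 (0.0346) or 10 (0.0473). Col4a2 differed by 0.02 (adjusted p = 0.936) and Col3a1, a fibrillar collagen of soft tissue, by -0.29 ± 0.32 (adjusted p = 0.605). Col1a1 and Col1a2, the chains of type I collagen, differed by 0.14 and 0.03 (adjusted p = 0.208 and 0.786), with all group means below background.

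Macrophage markers were lower in the same tumours, in which 16.2% of all genes were called. Of 10 macrophage markers 8 were lower and 0 higher with OTX015 (median -1.14), their mean level ranging from 6.20 to 8.13 in controls and from 4.60 to 6.79 in treated tumours. Of 13 fibroblast markers, Lum, a proteoglycan of collagen fibrils, was higher (1.23, from 4.42 in controls, below background) and Mfap5 of the microfibrils lower (-0.48, from 4.35, also below it), and the mean of the list ranged from 4.24 to 4.71 and from 4.21 to 4.51. Endothelial markers had 1 of 10 higher (Esam, 0.43, 3.99 in controls, below background) and pericyte markers 0 of 5 changed. The part of these cells in the collagen differences was not tested. Of 17 collagen-modifying genes 3 rose and 2 fell, among them the prolyl 3-hydroxylase P3h1 (0.45), the transcription factor Creb3l1 (0.42) and the collagen galactosyltransferase Colgalt2 (-0.18, below background). Of 11 processing genes 1 fell, Pcolce2, below background, and of 9 receptors 1 rose, the alpha 2 integrin chain Itga2 (0.50, from 4.14 in controls). Of 10 cartilage genes Sox9 rose and Chad fell, both below background in controls. Ccn2, a target of TGF-beta, rose by 0.82 and Tgfbi fell by 1.19, the only called genes of 11 in that list.

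The OTX015 effect in tumours minus that in cells was tested directly, as a contrast of the 4 group means. It passed for 7 collagen genes (4 higher, 3 lower), 16.7% against 32.7% of all genes. On the deposited values it was higher for 3 and lower for 15. Col9a1 changed by -3.59 in cells and -0.33 in tumours, a difference of 3.25 ± 0.25 (adjusted p = 3.06e-11), and its second probe set gave 0.92 (adjusted p = 0.000323). The treated cultures lie below background, so the fall in cells is at least 2.93 on the log2 scale and the difference of 3.25 is not exact. For Col4a5 the effects were -0.99 in cells and 0.43 in tumours, where it did not pass (limma adjusted p = 0.124). The difference was 1.42 ± 0.32 (adjusted p = 0.000696), which did not pass on the second probe set (0.23, adjusted p = 0.291). For Col15a1 the effects were -0.13 and 1.08, a difference of 1.21 ± 0.10 (adjusted p = 1.24e-10). Col15a1 lay above background in treated tumours alone. Its rise there is at least 0.61 on the log2 scale, and the difference of 1.21 is not exact either. Col1a2, Col20a1 and Col11a2 lay below background in all 4 groups, and Col7a1 above it in treated cultures alone (4.58). Col3a1, Col5a2 and Col14a1 did not pass, though 1 probe set of each was called higher in this contrast.

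**Figure D3:**
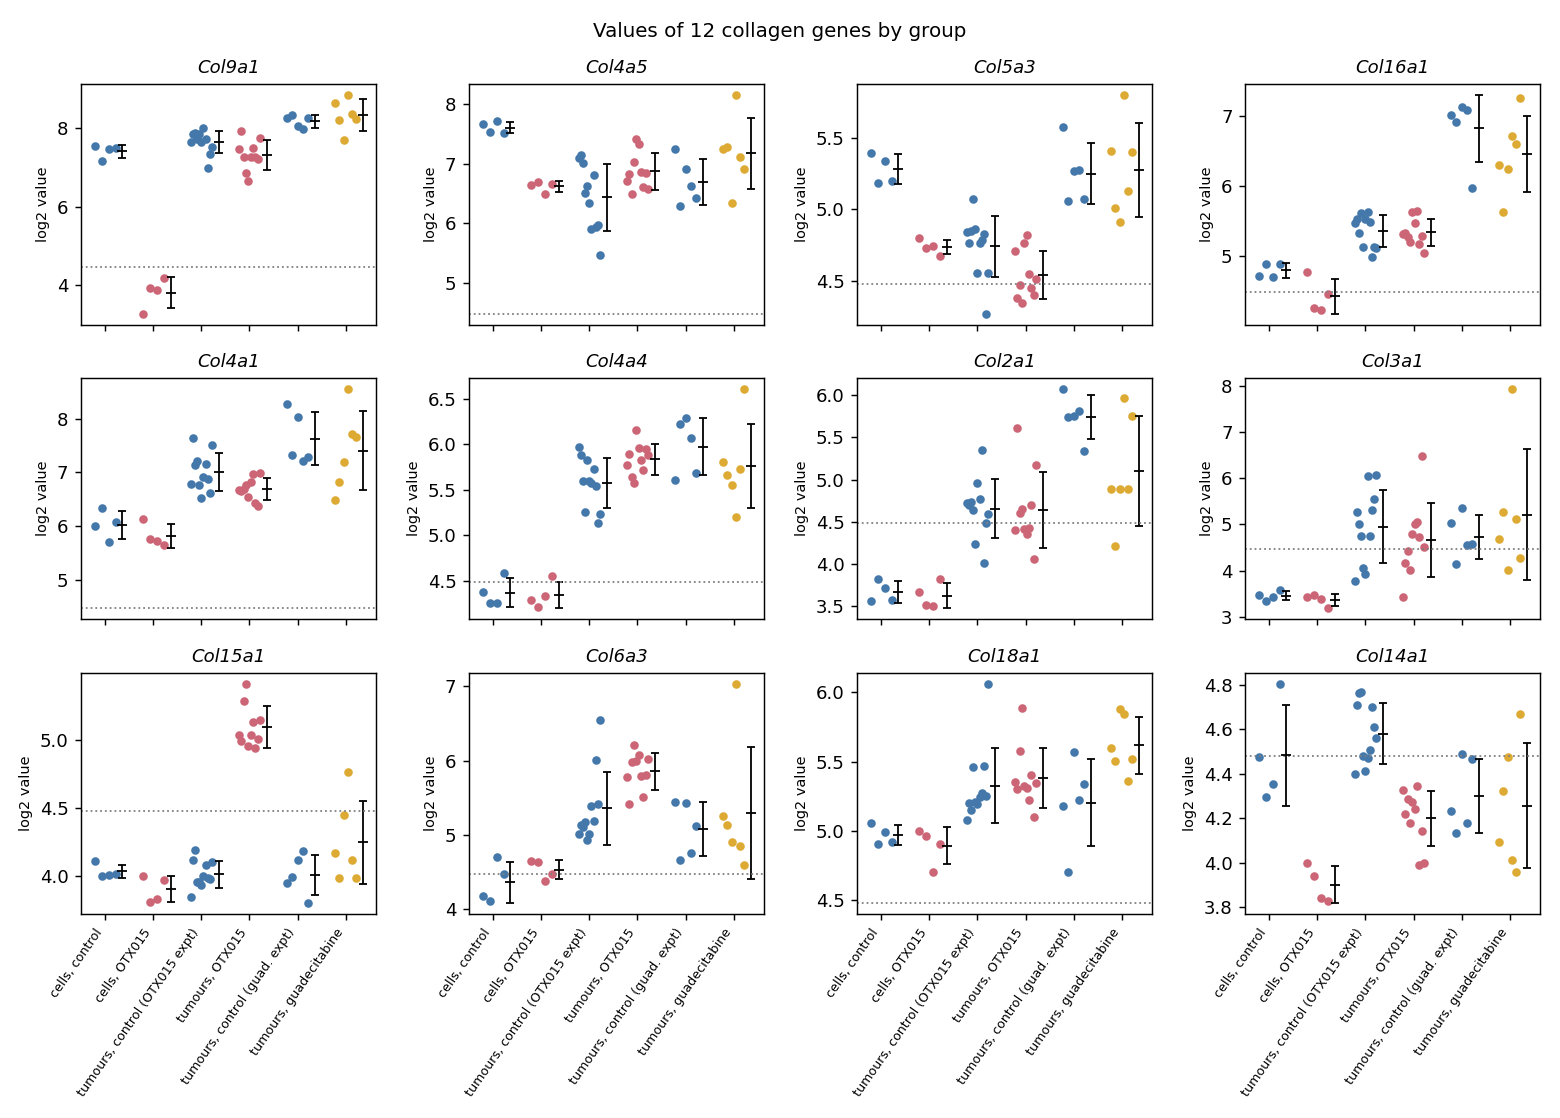
Log2 values of 12 collagen genes on each of the 40 arrays by group; points are arrays, the black bar beside each group gives its mean and SD, the dotted line marks background at 4.48, and vertical scales differ between panels. Col9a1 is below background only with OTX015 in cells, the 10 treated tumours lie above all 11 controls for Col15a1, and the control tumours of the guadecitabine experiment lie above those of the OTX015 experiment for Col16a1.

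Guadecitabine changed no collagen gene past the test. Of 42, 0 were called, as were 0% of all 17097 genes by limma, with 4 collagen genes and 1271 genes in all at an unadjusted p under 0.05. With all 6 groups in 1 fit, 1 collagen gene passed (Col1a2, adjusted p = 0.0259) and 257 genes in all. The median log2 difference was 0.08 over collagen genes and 0.05 over all genes. The lowest p belonged to Col11a1 (0.29 ± 0.09, adjusted p = 0.546), below background in all groups.

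Col18a1 stood at 5.18, 4.70, 5.57, 5.22 and 5.34 in the 5 controls and ranged from 5.36 to 5.88 in the 6 treated tumours (median 5.56), overlapping (0.41 ± 0.15, adjusted p = 0.596). Col1a2 differed by -0.41 ± 0.15 (adjusted p = 0.599), below background in both groups. Col9a1 stood at 8.26, 8.32, 8.04, 7.96 and 8.25 in controls and from 7.70 to 8.85 (median 8.30) with guadecitabine (0.16 ± 0.17, adjusted p = 0.839). Col15a1 lay below background in all 5 controls (3.804 to 4.18) and in 5 of the 6 treated tumours, the sixth being at 4.76 (0.24 ± 0.14, adjusted p = 0.729).

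A single treated tumour stood apart. Replicate 4 was the highest of the 6 tumours for 10 of the 21 collagen genes above background in at least 1 sample group. The largest such count in other tumour groups was 7, for replicate 3 of the guadecitabine controls and replicate 4 of the OTX015-treated tumours. The share over all genes was not counted. Col3a1 stood at 7.92 in replicate 4 against 4.01 to 5.26 in the other 5, and Col6a3 at 7.04 against 4.60 to 5.26. Replicate 4 also had the highest Col4a1 (8.55) and Col4a2 (8.29) and the highest mean of the fibroblast markers (4.81 against 4.14 to 4.25). The SD of Col3a1 in this group was 1.41, against 0.47 in its controls, and the part of fibroblast RNA in these values was not tested. Leaving out any 1 tumour left the count of called collagen genes at 0 by limma in each of the 11 fits. Of the 17 modifying, 11 processing, 9 receptor, 11 TGF-beta and 13 fibroblast genes, 0 passed.

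Untreated tumours were compared with untreated cells as the mean of both control tumour groups minus the control cultures. Of the collagen genes 14 were higher in tumours, 5 lower and 23 not called (45.2% called against 36.8% of all genes; 14.8% of all genes were higher and 22.1% lower), and their median log2 difference was 0.08 against -0.02 over all genes. Type IV (4 higher, 1 lower of 6), type VI (3 higher of 5) and fibrillar genes (5 higher, 2 lower of 11) held 12 of the 14 rises, with Col16a1 and Col9a1 of the fibril-associated class as the other two. Of the 19 called genes, 10 lay above background in both and 5 in neither. The 2 control tumour sets differ from each other, as described further on. This comparison shares the control cultures and the control tumours with the drug comparisons.

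Col2a1, the fibrillar collagen of cartilage, stood at 3.56, 3.83, 3.72 and 3.57 in the control cultures and ranged from 4.01 to 5.35 (median 4.70) in the 11 control tumours of the OTX015 experiment. It stood at 6.07, 5.74, 5.75, 5.81 and 5.34 in the 5 of the guadecitabine experiment. All 16 tumours were above all cultures (1.53 ± 0.16, adjusted p = 2.3e-07), at least 1.64-fold given the background level in cells. Col3a1 stood between 3.34 and 3.58 in cultures, from 3.78 to 6.07 in the first tumour set (median 5.01) and from 4.14 to 5.36 in the second (1.39 ± 0.34, adjusted p = 0.0027, at least 1.29-fold). Again no tumour overlapped the cultures, though some tumours lay below background.

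Within type IV, Col4a1 stood at 6.00, 6.33, 5.70 and 6.08 in cultures, ranged from 6.52 to 7.64 (median 6.92) in the first set and stood at 8.27, 7.32, 8.04, 7.21 and 7.28 in the second. All tumours were higher (1.29 ± 0.20, adjusted p = 2.81e-05, 2.45-fold). Col4a2, its partner in the common network and its neighbour on the chromosome, rose less (0.60 ± 0.19, adjusted p = 0.0166), with overlap, and lost the call in the deposited table (0.26, adjusted p = 0.327), with median centring (0.16, 0.583), in the first set alone (0.33, 0.0747) and without culture 3 (0.0807) or 4 (0.0552). Col4a4, found in specialised basement membranes, stood at 4.38, 4.25, 4.25 and 4.59 in cultures and from 5.13 to 5.97 and 5.61 to 6.29 in the tumour sets (1.41 ± 0.14, adjusted p = 1.56e-07, at least 2.41-fold), and both its probe sets rose. Col4a5 was the exception: at 7.51 to 7.71 in cultures it was higher than in all 16 tumours (5.47 to 7.14 and 6.28 to 7.24), a fall of 2.06-fold (-1.04 ± 0.25, adjusted p = 0.00206) that passed on both probe sets.

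Col16a1 stood at 4.71, 4.89, 4.70 and 4.88 in cultures, from 4.98 to 5.64 (median 5.48) in the first set and at 7.02, 6.92, 7.13, 7.10 and 5.98 in the second (1.30 ± 0.16, adjusted p = 1.59e-06). All tumours lay above all cultures, and the group means differed by 0.56 in the first set and by 2.03 in the second. For type VI, Col6a3 (0.86, adjusted p = 0.00501, at least 1.61-fold) and Col6a2 (0.74, adjusted p = 0.00376) were higher, the latter on both of its probe sets and without overlap. Col27a1 rose by 0.71 (adjusted p = 0.00225), also on both probe sets and in all 16 tumours. Col9a1 rose by 0.50 (adjusted p = 0.00418) with overlap, but passed neither in the deposited table (0.17, adjusted p = 0.486) nor with median centring (0.07, 0.806) nor in the first set alone (0.24, adjusted p = 0.18), and its second probe set gave 0.21 (adjusted p = 0.209). Col4a3 was also called higher (0.42, adjusted p = 0.048), and so were Col5a2, Col6a1 and Col11a2, which lay below background in both. Col4a3 lost the call in the deposited table (0.23, adjusted p = 0.0892), with median centring (0.13, 0.269), when its probe sets were averaged (0.0530), with all 6 groups in 1 fit (0.0714) and in the guadecitabine experiment alone (0.14, 0.337). It also lost it without any single culture, without control tumour 2, 4, 7 or 10 of the OTX015 experiment and without 1, 2, 4 or 5 of the guadecitabine experiment (adjusted p of at most 0.145). Col11a2 lost its call without culture 1, 2 or 3, without control tumour 1 or 4 of the guadecitabine experiment (adjusted p of at most 0.128) and in the first set alone (0.38), and Col5a2 with all 6 groups in 1 fit (0.0524).

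Of the genes that were lower, Col5a1, a chain that sets fibril diameter, stood at 6.25, 6.44, 5.69 and 6.02 in cultures and ranged from 4.66 to 5.93 and from 4.67 to 6.01 in tumours. The ranges overlap, though all 16 tumours lay below the mean of the cultures (-0.85 ± 0.20, adjusted p = 0.00238), and all 3 of its probe sets fell. Col5a3 differed by -0.28 (adjusted p = 0.0464). Its second probe set was higher in tumours (0.19, adjusted p = 0.0408), the guadecitabine experiment alone gave -0.03 (adjusted p = 0.867), and averaging its probe sets gave -0.05 (adjusted p = 0.61). Leaving out a single culture (each of the 4), control tumour 2, 6, 7, 8 or 11 of the OTX015 experiment or 2, 3, 4 or 5 of the guadecitabine experiment ended the call, with adjusted p of at most 0.148. Col12a1 (-0.20) and Col23a1 (-0.19) lay below background; Col12a1 lost its call without culture 1, 3 or 4 and Col23a1 without culture 4, and both in the deposited table (adjusted p = 0.175 and 0.251). Col1a1, Col1a2, Col15a1 and Col18a1 differed by -0.03, -0.03, -0.02 and 0.30 and did not pass. Col18a1 passed when its probe sets were averaged (0.22, adjusted p = 0.0387), with array weights (0.26, 0.0150), in the OTX015 experiment alone (0.36, 0.0373) and without control tumour 2 of the guadecitabine experiment (0.36, 0.0315).

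Within each experiment, the OTX015 experiment's control tumours gave 15 collagen genes higher and 4 lower than cells (42.1% of all genes called) and those of the guadecitabine experiment 13 higher and 5 lower (37.1%). In both, 10 were higher and 2 were lower, and the share of all genes called in both was not counted. Host cell markers moved in the same comparison: all 10 macrophage markers were higher (median 3.57; mean level 3.53 to 3.62 in cultures, 6.20 to 8.13 and 5.99 to 6.66 in tumours), as were 4 of 13 fibroblast, 3 of 5 pericyte and 1 of 10 endothelial markers, with 2 fibroblast markers lower. Their part in the collagen differences was not tested. These counts and the next stand against 14.8% of all genes higher and 22.1% lower. Of 17 collagen-modifying genes 9 rose and 1 fell, and those with the smallest adjusted p were the lysyl hydroxylase Plod1 (1.46), Crtap (0.96) and the prolyl hydroxylase subunit P4hb (0.64). Of 11 processing genes 3 rose and 0 fell, with Pcolce at 0.95, and of 9 receptors 3 rose and 3 fell, with Ddr2 at -1.82 and the integrin chains Itgb1 and Itga1 at 0.77 and 0.85. Of 11 TGF-beta genes 4 rose and 5 fell, among them Tgfbi (3.52) and Ccn2 (2.03), both below background in cells. Of 10 cartilage genes 2 rose and 3 fell, with Hapln1, which links cartilage proteoglycans, at 1.94 from below background.

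The 2 sets of control tumours differed from each other in 17 collagen genes, 9 higher (9.24% of all genes) and 8 lower (27.4%) in the guadecitabine experiment (40.5% called, against 36.7% of all genes and 37.8% of the background receptor genes). Col16a1 was higher by 1.47 ± 0.16 (adjusted p = 1.28e-05) with no overlap between 4.98 to 5.64 and 5.98 to 7.13, and Col2a1 by 1.09 ± 0.16 (adjusted p = 0.00018). Col9a1 was higher by 0.52 (adjusted p = 0.00642), though not when its probe sets were averaged (0.26, adjusted p = 0.0781). Col6a2 was lower by 0.70 on the log2 scale (adjusted p = 0.0122), on both probe sets. Col4a1 was higher by 0.61 (adjusted p = 0.0247), a call lost without replicate 1 (adjusted p = 0.0953) or 3 (0.0851) of the guadecitabine experiment and when its probe sets were averaged (0.115). Macrophage markers were lower there too (8 of 10, 0 higher, median -0.93). Each set lies in 1 experiment, so the experiment and any other difference between the sets cannot be told apart. Without replicate 3 of the guadecitabine experiment, 10 collagen genes passed, and 3978 genes in all against 6267 with it.

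Among the 11 control tumours of the OTX015 experiment, the 18 collagen genes above background there had a larger SD than in the control cultures in 17 cases (94.4%, against 78.6% of all genes above background there), with Col14a1 the exception (0.14 against 0.23). Some of the 18 lie below background in cultures, which limits their SD. Of the 12 above background in both groups, 11 had the larger SD in tumours (91.7%, against 77.6% of all such genes). Of the 13 fibroblast markers 3 lay above background in these tumours, Dcn (5.01), Fbln1 (8.14) and Pdpn (7.13). Fbln1 and Pdpn did so in control cultures too (8.15 and 6.61), so the mean of the list is not a measure of fibroblasts alone. Col3a1 followed the mean of the 13 markers (Pearson r = 0.88, permutation p = 6.00e-05, adjusted 0.00054, and Spearman rho = 0.93, permutation p = 0.00017, adjusted 0.00153, with 9 relations and n = 11). Without the 2 tumours farthest from the median of the markers r was 0.91, and it was 0.94 without the 2 of these arrays with low spread of values. For Col9a1 r was -0.22 (permutation p = 0.487; rho = -0.18), and -0.56 without the 2 farthest tumours.

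Col1a1 (r = 0.74, permutation p = 0.00617, adjusted 0.0278; rho = 0.61, adjusted 0.154) and Col18a1 (r = 0.80, permutation p = 0.0151, adjusted 0.0454; rho = 0.74, adjusted 0.0571) fell to r = 0.38 and 0.46 without the 2 farthest tumours, so these relations rest on those samples. The adjusted p of Col18a1 was above 0.05 without control tumour 1, 2, 5, 6, 8 or 11 (r = 0.35 without 11), and that of Col1a1 without 5, 6, 7 or 11 (r = 0.622 without 11). Col1a1 is below background throughout. The other 5 genes (Col1a2, Col5a1, Col6a1, Col4a1 and Col15a1) had r from 0.17 to 0.66 and adjusted permutation p from 0.0596 to 0.602. The group of 5 control tumours was too small for this.

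**Figure D4:**
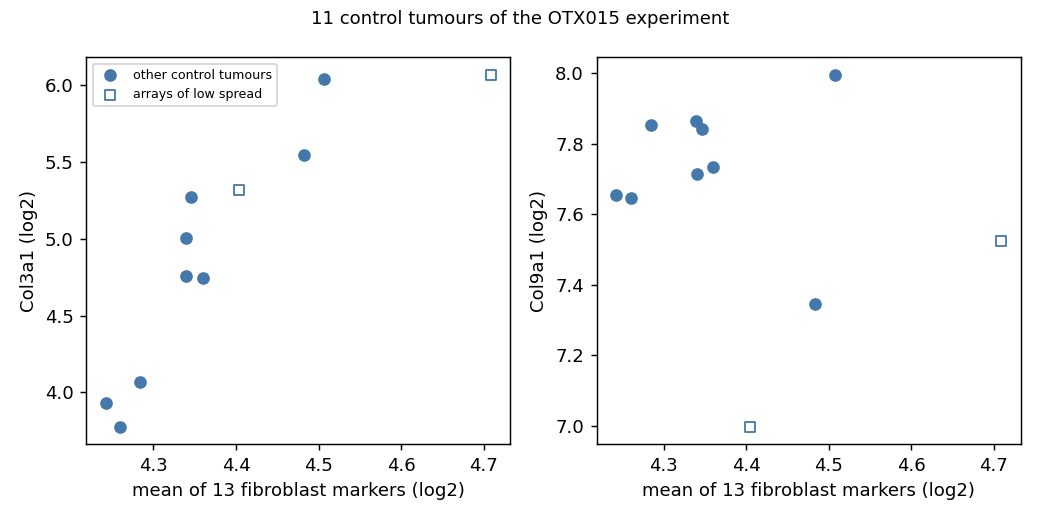
Log2 value of Col3a1 (left) and Col9a1 (right) against the mean of 13 fibroblast markers in the 11 control tumours of the OTX015 experiment; open squares are the 2 arrays with a low spread of values. Col3a1 rises with the markers (r = 0.88) from 3.78 to 6.07, and the value for Col9a1 is r = -0.22. The markers Fbln1 and Pdpn lie above background in control cultures too.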

How the data were processed

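RNA (500 ng per sample) was labelled and hybridised to Affymetrix 3′ arrays, 1 per sample, per the labels. Values in the deposited table are log2 intensities after RMA in the Transcriptome Analysis Console, as the submitters' processing notes name these; no version is named, nor which arrays were processed together. Precision is limited by the number of arrays. Platform annotation from GEO gave 1 gene to 28898 of 45141 probe sets, several to 551 and none here to 15692. Col28a1 and Col6a6 are not analysed here.

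All 40 arrays were quantile-normalized together. Each comparison was fitted on its own arrays with limma 3.58.1 in R 4.3.3 (lmFit, eBayes, two-sided), with Benjamini-Hochberg adjustment over 17097 genes; p-values of single probe sets were adjusted over all named probe sets. A fold is given as "at least" where 1 group lies below background, each of its arrays then counting at background or at its own value if higher. Permutation tests used 100000 resamples. The fits were tested on simulated data. Members and lists were chosen with earlier results of these data known. Named with a test were the called members with the largest change, up to 8 in each direction, or the 3 with the smallest p where fewer than 3 passed. Col1a1, Col1a2, Col3a1, Col4a1, Col4a2, Col9a1, Col15a1 and Col18a1 could be named throughout, and of other lists up to 3 called genes with the smallest adjusted p. Members and list genes beyond this were added after their values were seen: Col9a2, Col9a3, Col4a6 and Sox6 in cells, second probe sets, Col4a5 and Col18a1 where a contrast needed them, and the remaining chains named as called. Promoters came from RefSeq (GRCm38.p6), matched by symbol.

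Alternatives were the deposited values, median centring, quantile normalization per comparison, averaged or single probe sets, genes above background, a trended robust variance, 1 fit of all 6 groups, array weights, the replicate block, other thresholds and each array left out. For the alternative of genes above background the mean over the 40 arrays counted, which left out Col15a1 (4.31). Fits without the 3 arrays of lowest spread and with each control tumour set alone were added after seeing the data.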

Additional observations from a re-analysis of the deposited data

Results flagged for a closer look

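The OTX015 effect differed between tumours and cells, by the contrast of group means in limma, for 7 collagen genes. Tumour minus cell differences were 3.25 for Col9a1, 1.42 for Col4a5, 1.21 for Col15a1 and 0.41 for Col1a2 on the log2 scale. They were -0.55 for Col20a1, -0.42 for Col11a2 and -0.34 for Col7a1. Col1a2, Col20a1 and Col11a2 lay below background in all 4 groups. Col15a1 lay above it in treated tumours alone and Col9a1 below it in treated cultures alone, so their differences are not exact. The call of Col1a2 was lost on the deposited values (0.22, adjusted p = 0.103), and that of Col7a1 without control culture 2 (adjusted p = 0.062) or treated culture 1 (0.066) or 2 (0.0666).

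In 7 cases 1 sample lay far from the others of its group by Dixon's criterion at 95%, among 121 gene and group pairs examined; chance alone marks about 1 in 20. In guadecitabine-treated tumour replicate 4, Col3a1 was at 7.92 (next 5.26) and Col6a3 at 7.04 (next 5.26). In OTX015-treated tumours, Col3a1 was at 6.49 in replicate 9 (next 5.06) and Col4a3 at 6.49 in replicate 4 (next 5.77), an array of low spread. Col16a1 was at 5.98 in control tumour replicate 5 of the guadecitabine experiment (next 6.92), below the other 4 yet above all 11 controls of the OTX015 experiment. In cultures, Col15a1 was at 4.11 in control replicate 1 (next 4.02), below background, and Col4a3 at 5.34 in OTX015 replicate 1 (next 5.14).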

How the results depend on the processing

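Called collagen genes numbered 8 for OTX015 in cells, and 5 among genes above background, 5 with all 6 groups in 1 fit and 2 at 1.5-fold or more. For OTX015 in tumours 6 became 31 on the deposited values (1 higher, 30 lower), 0 among genes above background (Col15a1 not tested there), 11 with array weights, 10 without the 3 arrays of lowest spread and 1 at 1.5-fold. For guadecitabine 0 became 1 with all 6 groups in 1 fit. For tumours against cells 19 became 12 at an adjusted p under 0.01 and 11 at 1.5-fold. Between the sets of control tumours 17 became 10 among genes above background, 6 with the replicate block, 7 at 0.01 and 5 at 1.5-fold. For the difference of OTX015 effects 7 became 18 on the deposited values, 2 among genes above background (Col15a1 not tested there), 12 with array weights and 3 at 1.5-fold. The 3 called relations with fibroblast markers became 1 without the arrays of lowest spread. Causes were not tested. Leaving out 1 array gave 7 to 11 (OTX015 in cells), 4 to 8 (in tumours), 0 (guadecitabine), 14 to 19 (tumours against cells), 10 to 18 (control tumour sets), 6 to 8 (difference of effects) and 1 to 4 (relations). A second probe set was called in the opposite direction for Col14a1 with OTX015 in tumours and for Col5a3 in tumours against cells. Single probe sets aside, no collagen gene difference that passed turned direction. Of those that did not pass, in OTX015 tumours Col1a1, Col1a2, Col4a2 and Col18a1 became -0.083, -0.13, -0.20 and -0.19 on the deposited values, and Col3a1 0.052 with array weights. Averaged probe sets gave 0.10 for Col4a1 with guadecitabine. In tumours against cells Col1a1, Col1a2 and Col15a1 became 0.064, 0.044 and 0.077 on the deposited values, Col15a1 0.0082 with array weights, Col1a2 and Col15a1 0.0051 and 0.011 with the replicate block, and Col1a1 and Col1a2 0.013 and 0.28 with the guadecitabine experiment alone. With 1 array left out, Col1a1 ranged from -0.092 to 0.020 in cells; in OTX015 tumours Col4a2 from -0.027 to 0.054 and Col18a1 from -0.00074 to 0.13; with guadecitabine Col4a2 from -0.32 to 0.12 and Col3a1 from -0.065 to 0.72; and in tumours against cells Col1a2 from -0.068 to 0.019, Col15a1 from -0.043 to 0.0041 and Col1a1 from -0.065 to 0.0037.

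Over all genes, OTX015 in tumours gave 2768 calls (53.6% higher), 9445 on the deposited values (2.28% higher) and 841 among genes above background; guadecitabine gave 0, and 1 to 257 under 5 settings; the control tumour sets gave 6267, 3845 among genes above background and 3429 with the block. Median centring put 16.9% of calls higher for tumours against cells (40.1% otherwise) and moved the median of all genes to -0.12. The difference of effects gave 5585 calls (55.2% higher) and 7250 on the deposited values (24% higher). It gave 4289 among genes above background and 7370 with array weights. With the replicate block, collagen calls were 8, 5, 0, 16 and 7 for the other 5 comparisons. Deviations of same-numbered samples correlated from -0.1 to 0.15 in cells, -0.54 to 0.43 in OTX015 tumours and -0.44 to -0.055 in the guadecitabine experiment, best with the own number in 2 of 4, 0 of 10 and 0 of 5 pairs. The labels name no pairing, and with so few pairs these values do not settle whether same-numbered samples belong together. Levels near 4.48 are limited by background, and 5 to 11 arrays per tumour group limit small differences.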
